A study of Cochliomyia hominivorax with 18 samples.

Results

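A set of 228 predicted transcripts, of 22420 in the table, stood low together in 3 libraries of larval midgut from the New World screwworm, Cochliomyia hominivorax. The 3 libraries were post-Tc 1, post-Tc 2 and control 2, so the set crossed the treatment groups. A transcript was a member when its mean over the other 6 larval libraries (post-Tc 3, on-Tc 1, on-Tc 2, on-Tc 3, control 1 and control 3) was at least 10 counts per 1000000 of the column total (CPM), and when its highest value in the 3 was at most 1/1.5 of its lowest value in the 6. The mean of the adult controls had also to lie within a factor of 4 of the mean of the larval controls, with 0.1 CPM added to each. A total of 5652 transcripts reached that level in the 6 libraries and serve below as the background for levels. The members were chosen by their larval values and by the ratio of adult to larval controls, so those are given as a description without a test. Tests are given for the adult treatment groups alone, where the rule used the adult controls only through the 4-fold bound.

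Poly(A)-selected midgut RNA of production flies was sequenced in 18 libraries, 3 in each of 6 groups, which are post-Tc, on-Tc and control in adults and the same in larvae. Post-Tc animals were taken after rearing with tetracycline, on-Tc animals during it and controls before it, so treatment and time of collection cannot be told apart. Tetracycline blocks protein synthesis in bacteria, and it also switches off conditional transgenes in insect strains reared for sterile-male release. The sources used here give no strain, age, sex, dose or number of guts per library. Nothing in the labels ties the replicate numbers 1 to 3 to separate cultures or cages, so p-values measure the spread between these libraries, which may be technical.

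In flies the midgut is the part of the gut that secretes digestive enzymes, absorbs nutrients and sheds the peritrophic matrix, a sheet of chitin and protein around the food. In Drosophila the larval midgut is broken down at metamorphosis and the adult midgut is built anew from progenitor cells. If the same holds in the screwworm, the libraries of the 2 stages come from different epithelia. Screwworm larvae are parasites of living mammals and birds that eat wound tissue, whereas the adults take liquid food. The IDs consist of a gene number and a transcript number, and the table pairs no gene names with them. The members therefore carry no known role here, the midgut label could not be set against marker genes, and no sequence could be shown.

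As a group the members took far less of the RNA in the 3 low libraries than in the other 6 larval libraries. Their summed level was 7303 CPM in post-Tc 1, 6877 CPM in post-Tc 2 and 7008 CPM in control 2, against 20133 CPM in post-Tc 3, 18060, 23943 and 22055 CPM in on-Tc 1, 2 and 3, and 22056 and 20061 CPM in control 1 and 3. The 3 low libraries lay close to each other, and their highest sum was far under the lowest of the other 6. The median member was 2.94-fold lower in the mean of the 3 than in the mean of the 6, with a range from 1.71-fold to 17.7-fold, where the median over all transcripts at the level was 1.18-fold lower. A total of 211 members were at least 2-fold lower and 48 at least 4-fold lower. In bulk RNA, fewer cells of a type and less RNA per cell cannot be told apart.

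**Figure D1:**
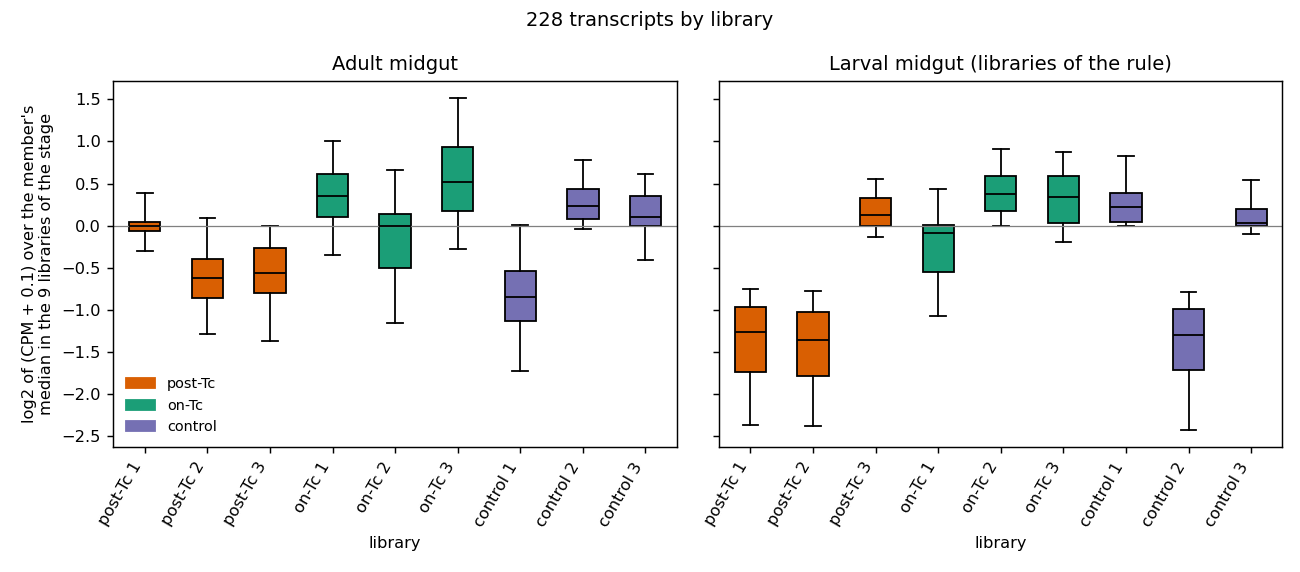
Level of the 228 members in each adult (left) and larval (right) library, as log2 of (CPM + 0.1) over the member's own median in the 9 libraries of that stage; boxes span the 25th to 75th percentiles of members, the bar is the median and whiskers reach the 5th and 95th percentiles. Larval post-Tc 1, post-Tc 2 and control 2 lie low because the rule chose the members there; among adults, which the rule did not rank, post-Tc 2, post-Tc 3 and control 1 have the lowest medians.

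The dip was of like size inside both treatment groups that it split. Among larval post-Tc libraries, the median member was 2.75-fold higher in post-Tc 3 than in post-Tc 1 and 2.85-fold higher than in post-Tc 2, while the median ratios over all transcripts at the level were 1.06 and 0.988. Among larval controls, the median member was 2.96-fold higher in control 1 and 2.77-fold higher in control 3 than in control 2, against 1.31-fold and 1.22-fold over all transcripts at the level. None of the 3 larval on-Tc libraries was in the low set. On-Tc 1 was nevertheless the lowest of the 6 for 131 of the 228 members, and on-Tc 3 or on-Tc 2 was the highest of the 6 for 91 and 81 members. Within the low set, control 2 was lowest for 89 members, post-Tc 2 for 83 and post-Tc 1 for 56.

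The number of members rested on the scaling and on on-Tc 1. With CPM scaled by TMM factors (trimmed mean of M-values, a scaling for differences in RNA composition), 91 transcripts met the rule, 89 of them members. All 228 members still had every one of the 6 above all 3 under that scaling, by a ratio of at least 1.16 and a median of 1.44, so the change was in how many reached 1.5. Without larval on-Tc 1, 494 transcripts met the rule, all 228 members among them. Just inside the threshold, g16068.t1 had 9.64 CPM in the highest of the 3 and 14.5 CPM in the lowest of the 6, and g278.t1 had 7.88 and 11.8 CPM. Just outside it, g4534.t1 had 72.2 and 108.1 CPM and g16989.t1 had 38.5 and 57.4 CPM, at ratios of 1.497 and 1.494. A total of 61 members had a ratio under 1.6 and 97 transcripts outside the set had a ratio from 1.4 to 1.5, so the edge of the set is not a natural break.

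The abundant members showed the dip at high levels. The transcript g21038.t1, the most abundant member, had 342.7, 282.9 and 425.9 CPM in larval post-Tc 1, post-Tc 2 and control 2, against 937.0 CPM in post-Tc 3, 1133, 854 and 984 CPM on-Tc, and 807 and 1152 CPM in control 1 and 3. It was 2.79-fold lower in the 3, and the order of the 6 did not follow treatment. For g13062.t1 the 3 low libraries had almost the same level, 230.2, 234.6 and 234.1 CPM, against 897.7 CPM in post-Tc 3, 1048, 884 and 893 CPM on-Tc, and 768 and 708 CPM in control 1 and 3. Its ratio between the lowest of the 6 and the highest of the 3 was 3.02, the widest gap among the 4 most abundant members. The others were g6028.t1, with 195.0 to 245.5 CPM in the 3 and 541 to 1233 CPM in the 6, and g3511.t1, with 296.0 to 324.9 CPM in the 3 and 499 to 1102 CPM in the 6. Few members were this abundant: 57 averaged at least 100 CPM in the 6, and the median member averaged 50.2 CPM there, where the median over all transcripts at the level was 39.2 CPM. The size of the dip did not go with abundance across members (Pearson's r 0.02, Spearman's rho -0.01 over 228 members, which share libraries and are not independent).

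The widest gaps were found at low and at high levels. The transcript g16692.t1 had 2.96, 1.55 and 2.33 CPM in larval post-Tc 1, post-Tc 2 and control 2, against 30.5 CPM in post-Tc 3, 22.6, 31.8 and 30.0 CPM on-Tc, and 32.6 and 21.1 CPM in control 1 and 3. Its 6 higher libraries spanned only 21.1 to 32.6 CPM, and the gap below them was 7.12-fold. The next was g3825.t1, with 1.49, 1.07 and 0.854 CPM in the 3, against 17.2 CPM in post-Tc 3, 13.2, 37.2 and 8.25 CPM on-Tc, and 31.7 and 13.5 CPM in control 1 and 3. Its mean was 17.7-fold lower in the 3, the largest difference of any member, and it rested on 47 counts in control 2, the lowest count of any member in a larval library. The other members with the widest gaps were more abundant. For g13714.t1 the 3 had 26.5 to 47.7 CPM and the 6 had 216.8 to 393.9 CPM, and for g9030.t1 the 3 had 18.8 to 53.1 CPM and the 6 had 235.5 to 394.5 CPM.

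**Figure D2:**
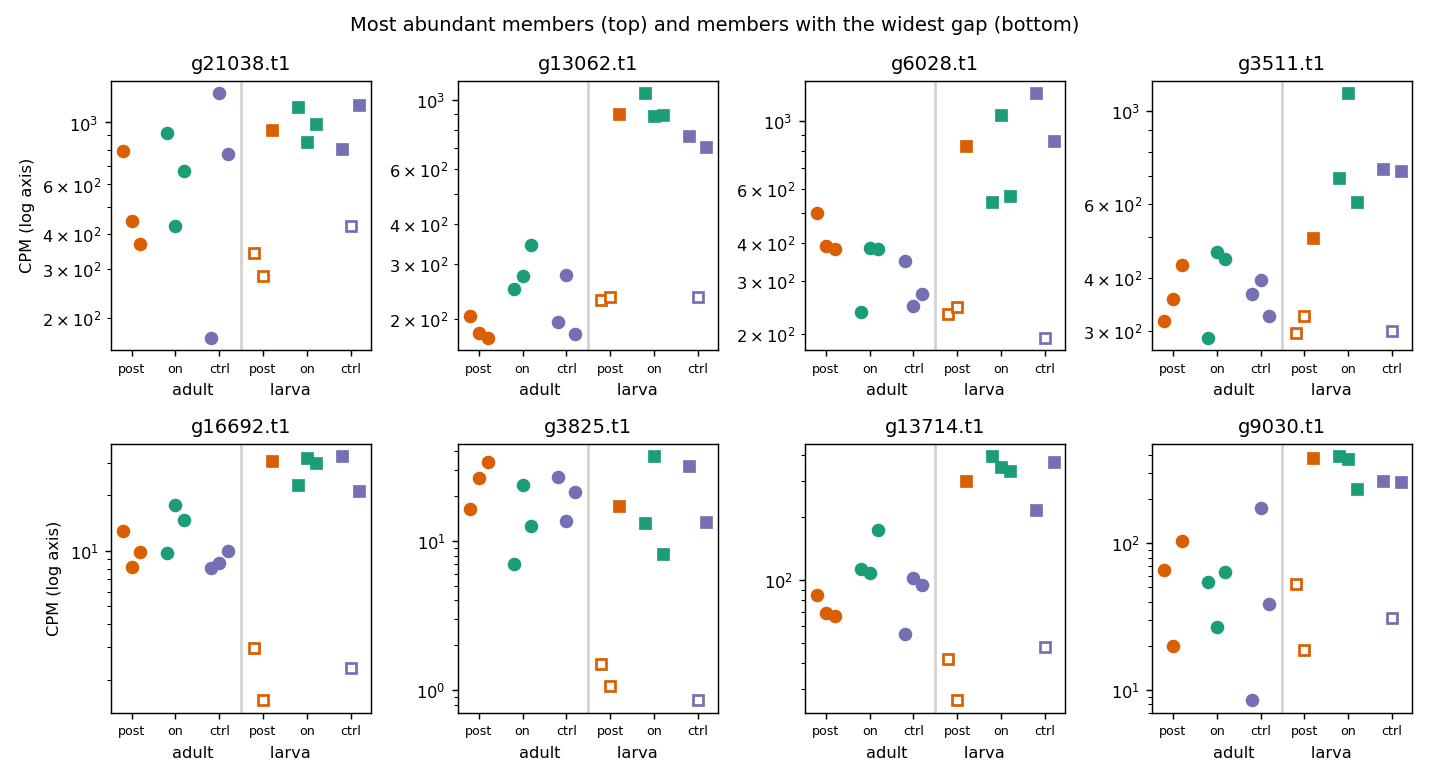
Level in CPM (log axis) of the 4 most abundant members (top row) and the 4 members with the widest gap (bottom row); circles are adult and squares larval libraries, open squares are larval post-Tc 1, post-Tc 2 and control 2, and points within a group run from replicate 1 to 3. In larvae the open squares lie under all filled squares. In adults g3825.t1, g6028.t1 and g3511.t1 are about as high in control 1, post-Tc 2 and post-Tc 3 as in the other libraries.

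Of the 4 widest gaps, 3 belonged to members whose neighbour by gene number was also a member. A total of 24 members formed 12 pairs of consecutive gene numbers, and no run was longer than 2. How often other sets of transcripts at the level hold such pairs was not counted. The transcript g3826.t1 was 15.3-fold lower in the 3 low libraries, beside the 17.7-fold of g3825.t1. The transcript g13715.t1 was 7.20-fold lower beside the 8.44-fold of g13714.t1, and g9031.t1 was 4.47-fold lower beside the 9.32-fold of g9030.t1. Members of the remaining 9 pairs were 1.76-fold to 5.08-fold lower, among them g317.t1 and g318.t1 at 1.83-fold and 2.33-fold. A further 198 transcripts at the level neighboured a member without being one. Their median log2 ratio of the 3 to the 6 was -0.26, with 67.7% negative. Over all 5424 transcripts at the level that were not members it was -0.22, with 65.4% negative, so these neighbours were close to the background. The files give no coordinates, so the distance between consecutive gene numbers is unknown. None of the 228 members belonged to a gene number with more than 1 listed transcript, against 39 (0.690%) of the 5652 transcripts at the level.

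In adults the members also moved together, and again across treatment groups. Their summed level was 11826, 8043 and 8306 CPM in post-Tc 1, 2 and 3, 14010, 11935 and 16624 CPM in on-Tc 1, 2 and 3, and 6886, 14050 and 11945 CPM in control 1, 2 and 3. Control 1, post-Tc 2 and post-Tc 3 were the lowest adult libraries and on-Tc 3 the highest. The 3 adult libraries with the lowest sums were, as in larvae, 2 post-Tc libraries and 1 control. Post-Tc 2 was among them in both stages, and the other replicate numbers differed. The adult range, from 6886 to 16624 CPM, overlapped the 3 low larval libraries only at its lower end and stayed under all 6 of the others.

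Counted member by member, adult control 1 was under the member's own adult median for 209 of 228 members (91.7%), post-Tc 3 for 207 (90.8%) and post-Tc 2 for 206 (90.4%). These same libraries were also low for transcripts in general, at 68.5%, 63.5% and 68.0% of the 5652 at the level. In the opposite direction, control 2, on-Tc 1 and on-Tc 3 were under the median for 6.14%, 10.5% and 11.4% of members, against 26.5%, 36.7% and 29.7% of all transcripts at the level. All 3 of control 1, post-Tc 2 and post-Tc 3 were under the adult median for 185 members (81.1%) and for 40.4% of all at the level; these 3 libraries were singled out after their values were seen. With TMM-scaled values the shares under the median were 86.0%, 86.4% and 85.1% of members in control 1, post-Tc 3 and post-Tc 2, against 51.0%, 54.5% and 47.8% of all at the level.

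**Figure D3:**
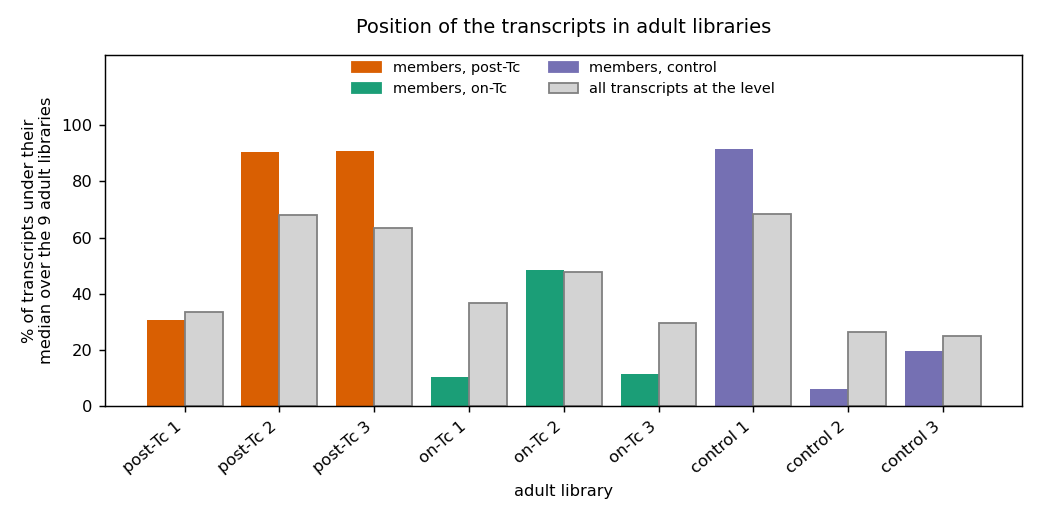
Percentage of transcripts under their own median over the 9 adult libraries, in each adult library, for the 228 members (coloured by group) and for all 5652 transcripts at the level (grey). Members are above 90% in post-Tc 2, post-Tc 3 and control 1 and under 12% in on-Tc 1, on-Tc 3 and control 2.

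Individual members showed this adult order to different degrees. The widest adult spread was that of g16533.t1, with 50.7, 1.83 and 3.55 CPM in post-Tc 1, 2 and 3, 50.6, 45.9 and 29.3 CPM in on-Tc 1, 2 and 3, and 1.604, 65.4 and 53.2 CPM in control 1, 2 and 3. Its 3 lowest adult libraries were the same 3 as for the set, and the other 6 were all at least 29.3 CPM. In larvae its 3 low libraries had 15.5, 20.5 and 17.98 CPM and the other 6 had 52.7 to 105.9 CPM. The narrowest adult spread was that of g9411.t1, from 26.2 CPM in control 1 to 38.8 CPM in control 2, although it had 22.0 to 24.7 CPM in the 3 low larval libraries and 38.9 to 41.0 CPM in the other 6. The median member varied 3.34-fold between its highest and lowest adult library, with 2.31-fold for the median transcript at the level (CPM + 0.1). Members with a deeper larval dip tended to vary more among adults (Pearson's r 0.43, Spearman's rho 0.47 over 228 members, between the log2 values).

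A pair of members went the other way in adults. The neighbours g3825.t1 and g3826.t1, with the largest larval dips, were among only 3 members that were under their adult median in none of control 1, post-Tc 2 and post-Tc 3. For g3825.t1 the adult levels were 16.5, 26.6 and 34.0 CPM in post-Tc 1, 2 and 3, 7.01, 23.7 and 12.6 CPM in on-Tc 1, 2 and 3, and 26.9, 13.7 and 21.5 CPM in control 1, 2 and 3. For g3826.t1 they were 47.9, 63.4 and 68.3 CPM post-Tc, 14.9, 51.6 and 19.2 CPM on-Tc, and 61.4, 39.7 and 66.6 CPM in controls. Both were lowest in on-Tc 1 and on-Tc 3, the libraries where the summed level of the set was high. The third was g12363.t1, with 20.6, 29.6 and 24.3 CPM post-Tc, 16.2, 21.6 and 19.7 CPM on-Tc, and 38.1, 24.2 and 31.0 CPM in controls.

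The share of counts in the most abundant transcripts ran opposite to the level of the members in both stages. In adults, the 10 most abundant transcripts of a library took 31.8% of counts in control 1, 27.0% in post-Tc 3 and 26.2% in post-Tc 2, against 13.9% to 23.1% in the other 6. In larvae they took 14.4% in post-Tc 1, 13.5% in post-Tc 2 and 16.02% in control 2, against 8.91% to 12.4% in the other 6. With the 44 transcripts that were among the 10 most abundant of any library left out of the totals, the summed level of the members was 8656 to 9575 CPM in the 3 low larval libraries and 22457 to 28302 CPM in the other 6, and 177 transcripts met the rule. The rule had chosen these members and larval libraries, so the gap between these sums is a description. With the same totals, adult control 1, post-Tc 3 and post-Tc 2 were under the adult median for 87.7%, 86.8% and 87.7% of members. The shares over all transcripts at the level were 54.2%, 52.9% and 55.7%. What part the most abundant transcripts had in the larval dip or in the adult order was not tested. Library totals of the 3 low larval libraries, at 41502887, 58865469 and 55019148 counts, lay within the 30221028 to 78052370 of the other 6 larval libraries. At an equal total of 19158409 counts, 13658, 13727 and 14016 transcripts would be detected in them and 12695 to 14083 in the other 6. The digit in the library name, whose meaning is not given in the sources used here, was 2 for larval post-Tc 1 and 1 for post-Tc 2 and control 2, so the low set held both digits.

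**Figure D4:**
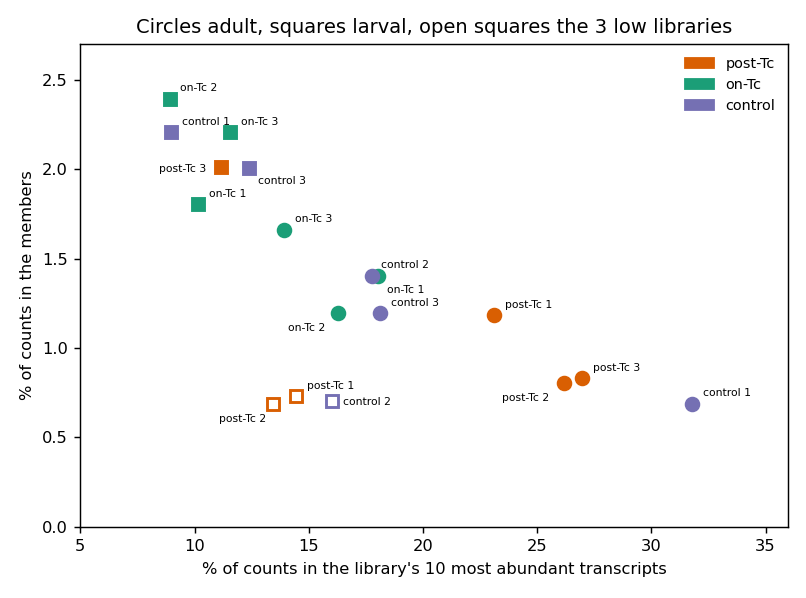
Percentage of a library's counts in the 228 members against the percentage in its own 10 most abundant transcripts, 1 point per library (circles adult, squares larval, open squares larval post-Tc 1, post-Tc 2 and control 2). The open squares lie at 0.69% to 0.73%, under the 1.81% to 2.39% of the other larval libraries, and the adult libraries with over 25% in their top 10 lie lowest among adults.

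For the adults, the question was whether the members differ during and after tetracycline, a comparison between groups that the larval libraries did not choose. All 228 members passed the filter on low counts. In the median they were lower post-Tc than on-Tc, by 0.64 on the log2 scale, where the median over all 11435 transcripts tested was 0.06. The sign was negative for 205 of the 228 members, while 54.1% of all transcripts tested had a positive sign. Members share these libraries, so their signs are not independent of each other. No single member passed the test: edgeR's quasi-likelihood test with Benjamini-Hochberg adjustment called 0 of 228 at an FDR of 0.05 (smallest member FDR 0.0708), where it called 0.437% of all transcripts. Limma-voom called 0 members and 0.516% of all. At an unadjusted p under 0.05, 84 members (36.8%) were lower post-Tc and 0 higher, against 10.5% and 11% of all transcripts (21.5% in either direction). DESeq2 called 40 members, all lower post-Tc, or 17.5% where it called 6.18% of all transcripts lower. The post-Tc libraries lay under all on-Tc libraries in 73 members (32%) and in 14.5% of all transcripts.

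The members with the smallest FDR in that comparison, picked after their values were seen, differed by less than 2-fold. The level of g16567.t1 was 30.5, 23.3 and 24.4 CPM post-Tc, against 48.1, 39.1 and 58.5 CPM on-Tc, a log2 difference of -0.82 ± 0.16 (SE; edgeR FDR 0.0708). That of g318.t1 was 34.0, 22.6 and 28.8 CPM post-Tc, against 60.2, 47.7 and 61.3 CPM on-Tc (log2 difference -0.91 ± 0.18, SE; edgeR FDR 0.0717). The groups did not overlap for either. The level of g7189.t1 was 54.8, 36.7 and 42.2 CPM post-Tc, against 82.1, 86.0 and 88.4 CPM on-Tc (log2 difference -0.88 ± 0.18, SE; edgeR FDR 0.0718). Its on-Tc libraries lay within 82.1 to 88.4 CPM, above all others in adults. Among the abundant members, g13062.t1 had 204.3, 180.8 and 174.0 CPM post-Tc, against 248.6, 273.2 and 345.0 CPM on-Tc (log2 difference -0.55 ± 0.23, SE; edgeR FDR 0.216). The 3 post-Tc libraries were again under the 3 on-Tc libraries, but the difference did not pass the test.

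Against the controls, the members were higher on-Tc in the median, and no member passed the test either. The median log2 difference was 0.44 over the 228 members and -0.06 over all transcripts tested. The sign was positive for 196 members and for 46.8% of all transcripts tested. EdgeR called 0 members (smallest FDR 0.0661; 0.236% of all transcripts called), limma-voom 0 (0.201% of all called) and DESeq2 18, all higher on-Tc (7.89%, where it called 4.58% of all transcripts higher). At an unadjusted p under 0.05, 50 members (21.9%) were higher and 1 lower, where 9.72% and 11.4% of all transcripts were (21.2% in either direction). The on-Tc libraries lay above all controls in 26 members (11.4%), close to the 8.22% of all transcripts. For g7189.t1 the on-Tc levels given above stood against 33.3, 57.2 and 44.4 CPM in controls (log2 difference 0.98 ± 0.18, SE; edgeR FDR 0.0661). For g16567.t1 the controls had 18.99, 29.8 and 32.8 CPM (log2 difference 0.89 ± 0.16, SE; edgeR FDR 0.0661). The abundant g2151.t1 had 396.1, 469.9 and 553.1 CPM on-Tc, against 116.6, 268.1 and 233.9 CPM in controls (log2 difference 1.27 ± 0.29, SE; edgeR FDR 0.0958). In all 3 of these members each on-Tc library was above each control. The comparison shares the on-Tc libraries with the preceding one, so the 2 sets of values are not independent of each other.

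Post-Tc against control, which bears on lasting effects, the members lay near each other in the median. The median log2 difference was -0.18 over the members and -0.03 over all transcripts. Of the 228 members, 172 had a negative sign, while 46.7% of all transcripts had a positive one. Without control 2 the median over members was 0.01, with 118 members positive, so that library decided the sign. EdgeR called 0 members and 0% of all transcripts (smallest FDR of both 0.597), DESeq2 called 0 members and 0.726% of all transcripts, and limma-voom called 0 members and 0% of all. At an unadjusted p under 0.05, 6 members (2.63%) were lower and 1 higher, where 2.96% and 3.6% of all transcripts were. The 1 higher member was g13833.t1, with 13.6, 11.1 and 11.9 CPM post-Tc, against 2.69, 8.67 and 6.05 CPM in controls (log2 difference 1.23 ± 0.31, SE; edgeR FDR 0.597). The 95% interval of a member's log2 difference typically extended 0.75 to either side (1.68-fold, the median over members).

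**Figure D5:**
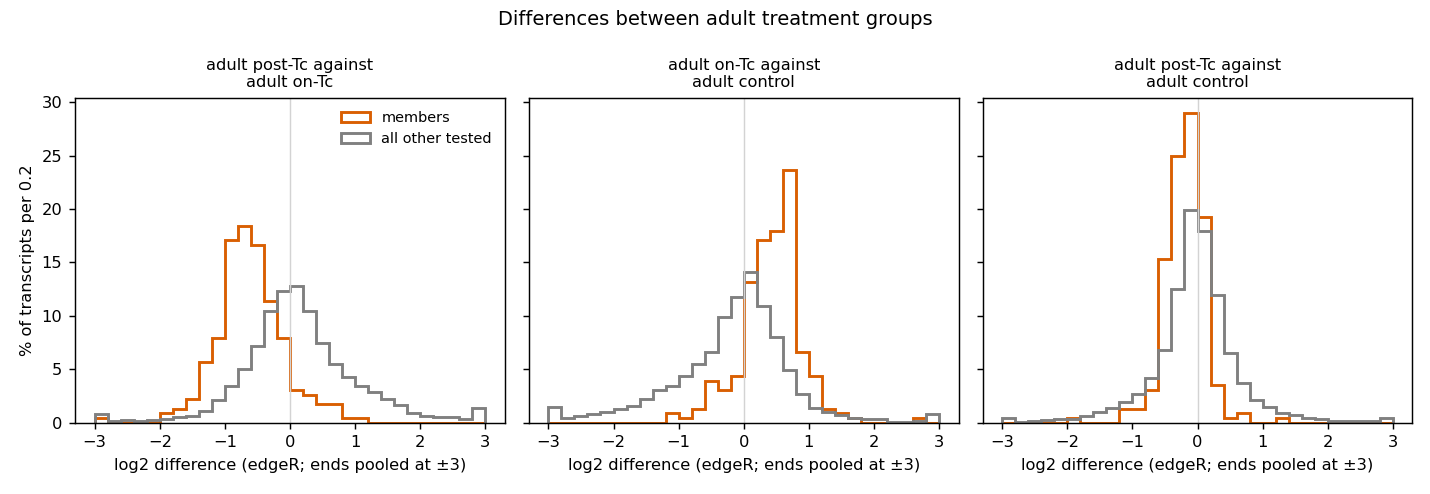
Fitted log2 differences between adult treatment groups (edgeR, TMM scaling), as the percentage of transcripts per 0.2, for the 228 members (orange) and all other transcripts tested (grey). Members are shifted to negative values post-Tc against on-Tc (median -0.64) and to positive values on-Tc against control (median 0.44), and lie nearer 0 post-Tc against control (median -0.18).

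The unadjusted counts depended on single adult libraries and on the fit. Post-Tc against on-Tc, 84 members passed in either direction (36.8%, against 21.5% of all transcripts). This became 39 without post-Tc 2 (17.1%, against 14.5%), 44 without post-Tc 3 (19.3%, against 14.3%) and 53 without on-Tc 1 (23.2%, against 18.7%). It became 45 without on-Tc 3 (19.7%, against 15.3%), 113 without post-Tc 1 (49.6%, against 20.5%) and 117 without on-Tc 2 (51.3%, against 19.7%). Without post-Tc 2 all 39 were lower post-Tc, where 6.66% of all transcripts were. In a fit over all 18 libraries 40 members passed, all lower post-Tc, or 17.5%, where 8.51% of all transcripts were lower. On-Tc against control, 51 members in either direction (22.4%, against 21.2% of all) became 28 without control 1 (12.3%, against 16.9%). They became 31 without control 3 (13.6%, against 15.5%) and 30 without on-Tc 3 (13.2%, against 15.2%), shares under those of all transcripts. Without control 2 they became 84 (36.8%, against 23.6%), and without on-Tc 2 they became 90 (39.5%, against 19.1%). Without control 1, 25 of the 28 were higher on-Tc (11%, against 7.49% of all). With library totals without scaling factors, 18 members passed on-Tc against control (7.89%, under the 17.3% of all transcripts), of which 16 were higher on-Tc (7.02%, against 5.2% of all). In the fit over all 18 libraries 23 passed, all higher on-Tc (10.1%, against 7.64% of all higher and 17.5% in either direction). The larger share of members higher on-Tc was thus close to that of all transcripts in these fits. The medians kept their sign without each of the low adult libraries. Post-Tc against on-Tc, the median log2 difference over members was -0.57 without post-Tc 2 and -0.56 without post-Tc 3, and on-Tc against control it was 0.31 without control 1.

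In larvae the same comparisons follow from the rule. Of the 6 higher libraries, 3 were on-Tc, 2 were controls and 1 was post-Tc. The summed level of the members averaged 11437 ± 7533 CPM post-Tc, 21353 ± 3004 CPM on-Tc and 16375 ± 8173 CPM in controls (SD, n = 3 each). These levels are a description, with no test.

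Adult levels of the members were mostly at or under the larval ones, within the factor of 4 that the rule allowed. The adult control mean was under the larval control mean for 200 members and above it for 28, with a median ratio of adult to larval controls of 0.661, where the median over all transcripts at the level was 0.841. Set against the larval libraries, the adult median lay under the highest of the 3 low libraries for 47 members, between the 3 and the 6 for 128, and above the lowest of the 6 for 53. All 9 adult libraries were above the 3 low larval libraries for 47 members, and all 9 were under the other 6 for 68. The highest ratios of adult to larval controls were those of g16502.t1, with 32.9, 47.7 and 25.5 CPM in adult controls and 20.4, 2.84 and 13.7 CPM in larval controls 1, 2 and 3, and of g16110.t1, with 69.3, 145.6 and 88.6 CPM against 51.7, 16.1 and 64.4 CPM. The lowest were those of g18033.t1, with 4.98, 12.2 and 9.92 CPM in adult controls against 50.7, 13.5 and 44.4 CPM in larval controls, and of g10416.t1, with 25.7, 54.9 and 15.97 CPM against 213.0, 43.2 and 125.2 CPM. Each had its lowest larval control in control 2, as the rule requires.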

How the data were processed

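The authors deposited raw counts for 22420 predicted transcripts in 18 libraries, judged from whole numbers and unequal column sums. The submitters' processing notes list Trimmomatic, STAR, featureCounts and DESeq2 with no version or role; the genome build, the annotation and the strand setting were not given in the sources used here. All columns were matched to samples by library name. The members, lists, tests and alternatives were chosen with earlier results of these data known, including a main axis of larval variation that set the same 3 libraries apart. CPM is the count per 1000000 of the column total. Tests were fitted on the whole table with edgeR 4.0.16 in R 4.3.3 (filterByExpr with a minimum count of 10 and minimum total of 15, TMM, quasi-likelihood F-test, Benjamini-Hochberg FDR of 0.05), using the 9 adult libraries. Standard errors were derived from the F statistic. The test was tested on simulated counts. The alternatives included DESeq2 1.42.0, voom in limma 3.58.1, other scalings, filters, covariates and libraries left out. Members were named by rank in level, gap, adult spread, adult to larval ratio and nearness to the threshold, and as the first pair of consecutive gene numbers; the rule named adult-comparison members only past FDR 0.05, which none reached, so those named there were picked after their values were seen. Depth was 19158409 to 79783813 counts per library.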

Additional observations from a re-analysis of the deposited data

How the results depend on the processing

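The number of members, 228, was 91 with TMM-scaled CPM, 536 and 53 with gaps of 5/4 and 2, and 234 to 494 with a larval library left out; it stayed between 177 and 260 under the other level, window, halved-count and total settings, the lowest with totals without the 44 most abundant transcripts, chosen after seeing the data. Members called on-Tc against control in adults were 0 with edgeR, 18 with DESeq2 and 0 to 2 with a library left out, and post-Tc against on-Tc 0, 40 and 0 to 1; post-Tc against control gave 0 throughout. The calls of 2 and 1 came without on-Tc 2. Over all transcripts, on-Tc against control gave 27 calls with edgeR, 1141 with DESeq2, 12 without a filter, 0 with library totals, the name digit or only the 6 libraries, and 0 to 21 with a library left out. Post-Tc against on-Tc gave 50, 1304 with DESeq2, 16 with all 18 libraries, 2 with library totals, the digit or no filter, 0 with only the 6 libraries, and 0 to 13 with a library left out. DESeq2 called 83 post-Tc against control. The median log2 difference over members ranged from 0.31 to 0.65 on-Tc against control, from -0.90 to -0.53 post-Tc against on-Tc and from -0.36 to 0.01 post-Tc against control. With the replicate number as a block, edgeR called 0 members and 0 transcripts in each adult comparison (medians 0.42, -0.62 and -0.18). Same-numbered adult libraries correlated at -0.355 to 0.237 in their deviations from group means. Differently numbered adult libraries of different groups correlated at -0.296 to 0.467. With 3 libraries per group, these values cannot show what the numbers stand for. Where calls moved, the cause was not tested. The 8 named adult differences kept their direction under every alternative run. In each of them the CPM of the groups did not overlap, so leaving out a library could hardly reverse the direction. In adults, the 95% interval of a member's difference had a median half-width of 1.68-fold, which limits the precision of single members.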

Other observations

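The reverse pattern was rarer. With the same thresholds turned round, 24 transcripts were at least 1.5-fold higher in larval post-Tc 1, post-Tc 2 and control 2 than in all of the other 6 larval libraries, against 228 lower. Both counts used column totals, where the median transcript at the level was 1.18-fold lower in the 3. The reverse rule was not run on TMM-scaled values. In adults these 24 were under their own adult median in 62.5% of cases in post-Tc 2, 58.3% in post-Tc 3 and 62.5% in control 1, near the 68.0%, 63.5% and 68.5% of all transcripts at the level, and in 8.33% in control 3. Without the bound on the ratio of adult to larval controls, 32 further transcripts met the rule for the low set.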
